A study of Homo sapiens with 6 samples.

Results

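The 2009 peaks described here had their summit within 1000 bp of either end of a long non-coding RNA (lncRNA) gene and over 1000 bp from both ends of every protein-coding gene. They were chosen by position alone, from 41427 peaks that an assay for transposase-accessible chromatin with sequencing (ATAC-seq) gave in 3 clones on chromosomes 1 to 22 and X, of which they made up 4.85%. Clone 1 held 759 of its 14262 peaks in this class, clone 2 held 1160 of 24977 and clone 3 held 90 of 2188. The cells were U937, a human monocytic line. The 3 clones were independent lines transduced with ΔNSPs plasmids and simultaneously depleted of CTSG, ELANE and PRTN3, the serine proteases cathepsin G, neutrophil elastase and proteinase 3 of neutrophil granules. The 3 control lines carried control plasmids. Lines of both genotypes were grown in RPMI1640 with serum under geneticin selection, exposed to DNase, washed, frozen in medium with DMSO and assayed at a service laboratory. Each ΔNSPs library is 1 clone, so what belongs to the depletion and what belongs to the clone cannot be told apart within a clone. A peak here is an interval in which the authors' peak caller found more reads than in the local background of the same library, and the summit is its highest point.

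Long non-coding RNA genes are transcribed by RNA polymerase II, mostly spliced, and yield no protein. Open chromatin is usually found at the 5′ end of a transcribed gene, where the promoter lies, and many lncRNAs start close to a protein-coding gene and share its promoter region. Some lncRNAs are hosts that carry small nucleolar RNAs (snoRNAs) or microRNAs in their introns or exons, some act in the nucleus, and many have no known function. Peaks at lncRNA starts with a summit within 1000 bp of an end of a protein-coding gene are left out of the class by its definition. Peaks near a start that lies within a protein-coding gene, away from its ends, are not left out.

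The RefSeq promoter windows of 6 lncRNA genes with such a peak in at least 2 clones show the range of sequence at these starts. Each window runs 5′ to 3′ on the gene's strand in GRCh38.p14, with 250 bases before the start and 50 after it, and positions are counted from 1 at its 5′ end. Capitals mark exact matches, on either strand, to short motifs of transcription factor families: CCAAT (the box bound by NF-Y), GGGCGG (bound by SP and KLF proteins), CCGGAAGT (ETS proteins) and TGANTCA (AP-1). The first 4 windows are rich in the dinucleotide CpG, which marks the CpG islands of many promoters. SNHG5, a snoRNA host, lies on the minus strand and its window is chr6:85678684-85678983. It holds 41 CpG, 1.20 times the number expected from its C and G content, and the clone 1 and clone 2 summits lay at positions 127 and 177. MIR210HG, the host of the hypoxia-induced microRNA miR-210, has its window at chr11:568408-568707 on the minus strand, with 80.0% G and C, 44 CpG and summits at 123 and 159. LINC00667 has its window at chr18:5237850-5238149 on the plus strand, with 38 CpG, an ETS match at 220 and summits at 214 and 290. Both summits also lie in the window of LINC00526, which is on the minus strand. SNHG29, another snoRNA host, has its window at chr17:16438737-16439036 on the plus strand, with 19 CpG and summits at 62 and 16. The last 2 windows are poor in CpG and each holds 1 AP-1 match. LUCAT1, a stress-induced lncRNA that is also described in myeloid cells, has its window at chr5:91314353-91314652 on the minus strand, with 3 CpG, an AP-1 match at 199 and summits at 195 and 128. MIR181A1HG, the host of miR-181a-1 and miR-181b-1, has its window at chr1:198937380-198937679 on the minus strand, with 0 CpG, NF-Y matches at 132 and 175, an AP-1 match at 203 and summits at 182 and 181.
SNHG5: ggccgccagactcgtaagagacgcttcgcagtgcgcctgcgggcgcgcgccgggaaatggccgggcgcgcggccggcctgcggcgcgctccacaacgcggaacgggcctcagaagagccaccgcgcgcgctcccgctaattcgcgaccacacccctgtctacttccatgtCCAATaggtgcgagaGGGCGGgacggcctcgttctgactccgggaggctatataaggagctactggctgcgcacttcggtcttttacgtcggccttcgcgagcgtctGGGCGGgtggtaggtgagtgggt
MIR210HG: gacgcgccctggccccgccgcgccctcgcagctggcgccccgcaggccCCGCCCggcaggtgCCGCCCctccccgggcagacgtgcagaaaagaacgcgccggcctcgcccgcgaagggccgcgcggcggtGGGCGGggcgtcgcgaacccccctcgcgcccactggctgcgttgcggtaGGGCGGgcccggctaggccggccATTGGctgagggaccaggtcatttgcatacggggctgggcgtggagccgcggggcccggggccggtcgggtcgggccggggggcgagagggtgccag
LINC00667: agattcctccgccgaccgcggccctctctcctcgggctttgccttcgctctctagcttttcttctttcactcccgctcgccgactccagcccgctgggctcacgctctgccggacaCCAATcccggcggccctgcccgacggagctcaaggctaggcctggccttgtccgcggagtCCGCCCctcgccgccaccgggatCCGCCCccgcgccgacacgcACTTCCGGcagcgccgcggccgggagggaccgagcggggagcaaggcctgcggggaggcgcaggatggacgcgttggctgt
SNHG29: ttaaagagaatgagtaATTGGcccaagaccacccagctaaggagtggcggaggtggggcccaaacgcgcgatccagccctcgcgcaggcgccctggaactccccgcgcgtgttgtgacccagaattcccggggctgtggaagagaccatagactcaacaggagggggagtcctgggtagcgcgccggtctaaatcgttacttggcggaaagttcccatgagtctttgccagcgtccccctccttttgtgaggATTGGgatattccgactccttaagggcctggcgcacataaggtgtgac
LUCAT1: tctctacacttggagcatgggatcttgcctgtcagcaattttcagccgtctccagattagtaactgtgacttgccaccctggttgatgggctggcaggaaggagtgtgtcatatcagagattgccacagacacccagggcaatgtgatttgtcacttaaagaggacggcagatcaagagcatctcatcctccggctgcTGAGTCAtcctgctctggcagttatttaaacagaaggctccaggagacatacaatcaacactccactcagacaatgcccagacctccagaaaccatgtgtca
MIR181A1HG: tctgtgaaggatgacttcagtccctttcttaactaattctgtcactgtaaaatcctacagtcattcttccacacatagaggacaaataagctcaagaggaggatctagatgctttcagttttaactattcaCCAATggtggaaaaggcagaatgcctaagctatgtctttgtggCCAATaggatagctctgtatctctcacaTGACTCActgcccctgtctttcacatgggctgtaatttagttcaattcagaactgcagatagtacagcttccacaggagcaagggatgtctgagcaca
A match is a description of the letters and not evidence of binding.

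The first question of the design is whether these peaks differed in number between the ΔNSPs clones and the control lines. The clones held 759, 1160 and 90 of them, and the 3 control lines held 0, 0 and 0. The groups did not overlap, and no lncRNA gene had a control peak of this class. The difference in mean log10(peaks + 1) was 2.63, and the exact two-sided permutation test over the 6 libraries gave p = 0.1, the smallest value that 20 assignments allow. The control lists were short as a whole, with 11, 4 and 2 peaks on the same chromosomes. At the clones' share of 4.85%, 17 control peaks would hold 0.824 of this class, and the exact 95% Clopper-Pearson upper bound on the control share was 19.5%. The control share is therefore too loosely bounded to be told apart from that of the clones. The read depth of the libraries is not given in the files, so its part in the list lengths was not tested. Nothing in the labels gives a culture or extraction batch. The p-values here take libraries or clones as the units. They reach their smallest value whenever the groups separate fully or all clones share a sign, whatever the spread between them.

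Among the clones the share of the class varied little while the number of peaks varied over 10-fold. It was 5.32% of the peaks of clone 1, 4.64% of clone 2 and 4.11% of clone 3, with a mean of 4.69% ± 0.606 (SD, n = 3). Counted by gene, 745, 1092 and 98 of the 18177 RefSeq lncRNA genes on these chromosomes had such a peak, or 4.10%, 6.01% and 0.539%. The gene counts differed from the 0 genes of each control line by 2.64 on the same log10 scale, again with an exact permutation p = 0.1. In all, 1472 genes (8.10%) had a peak in at least 1 clone, 401 (2.21%) in at least 2 and 62 (0.341%) in all 3. These are themselves the rates over all lncRNA genes. Of the 19974 protein-coding genes, 22.9% had a summit at an end in at least 2 clones and none in a control line. Of clone 3's 98 genes, 72 (73.5%) also had a peak in clone 1 and 82 (83.7%) in clone 2. Clones 1 and 2 had 371 genes in common, which were 49.8% of clone 1's genes and 34.0% of clone 2's. The genes of the shortest list were thus mostly held by the longer lists, and 1071 of the 1472 genes were found in 1 clone.

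Per length of sequence, summits were denser at lncRNA ends than away from gene ends and sparser than at protein-coding ends. Windows at lncRNA ends that are clear of protein-coding ends cover 62.95 Mb, and those at protein-coding ends 72.56 Mb. In the lncRNA windows there were 12.1, 18.4 and 1.43 summits per Mb in clones 1, 2 and 3. The protein-coding windows held 99.9, 79.3 and 14.1 per Mb, the bodies of genes 2.67, 7.22 and 0.409, and sequence outside genes 1.59, 5.13 and 0.330. The order of these classes was the same in every clone. The density in lncRNA windows was 5.58, 2.95 and 3.85 times that of all sequence away from gene ends (mean 4.13 ± 1.33, SD, n = 3), and the protein-coding density was 8.28, 4.30 and 9.85 times that in lncRNA windows (mean 7.48 ± 2.86, SD, n = 3). As mean log2 ratios these were 1.99 and -2.82 for lncRNA windows, each with the same sign in 3 of 3 clones and p = 0.25 in the exact sign-flip test, the smallest that 3 clones allow. Over the 13 tests made here, every Benjamini-Hochberg adjusted p was 0.25.

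**Figure D1:**
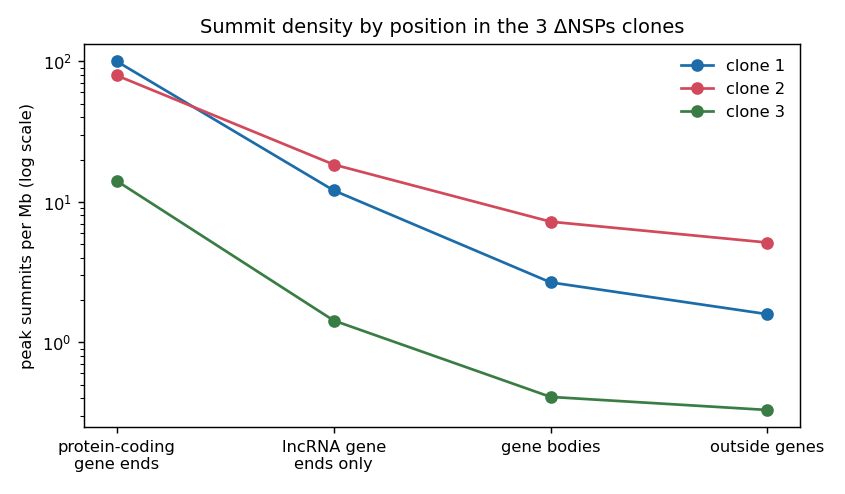
Summits per Mb of window (log axis) in each ΔNSPs clone, by class of window; each point is 1 clone. In every clone the lncRNA-end windows sit below the protein-coding ends and above gene bodies and sequence outside genes.

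The summits gathered at the 5′ ends. The strand of a lncRNA gene was known for 11383 genes (62.6%), those with a start in the RefSeq promoter table. Around the 5′ ends of these genes clones 1, 2 and 3 had 438, 606 and 47 summits, against 94, 220 and 16 around the 3′ ends. Per Mb of window this was 25.6 against 4.67, 35.4 against 10.9 and 2.74 against 0.794. The 5′ density was 5.48, 3.24 and 3.45 times the 3′ density (mean 4.06 ± 1.24, SD, n = 3), higher in 3 of 3 clones (mean log2 ratio 1.98, exact sign-flip p = 0.25, the smallest possible). The 3′ windows were still 2.16, 1.75 and 2.14 times as dense as sequence away from gene ends. The 100 bp just before the start held the most summits in clones 1 and 2, with 77 and 125. Of the summits nearest a 5′ end, 58.7%, 59.0% and 48.1% lay before it, and the median distance from a summit to the lncRNA end was 272, 321.5 and 269 bp.

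**Figure D2:**
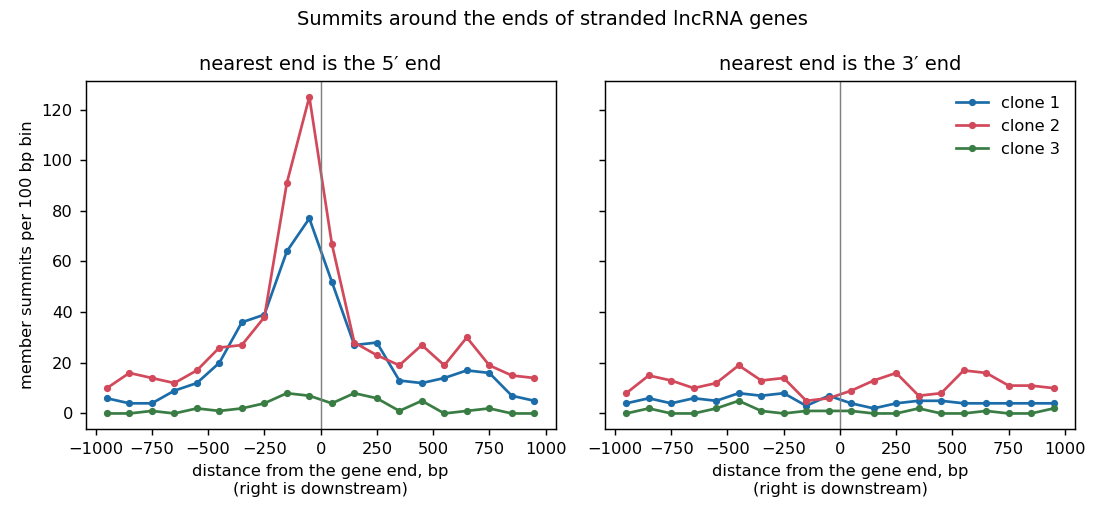
Number of summits per 100 bp (y axis) by distance in bp from the lncRNA end in the direction of transcription (x axis), for summits nearest a 5′ end (left) or a 3′ end (right) in each ΔNSPs clone. In clones 1 and 2 the bin with the most summits is the 100 bp before the 5′ end, with 77 and 125.

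Part of these lncRNA ends lie inside protein-coding genes whose ends are over 1000 bp away. The median distance from a summit to the nearest protein-coding end was 14.1, 17.7 and 11.2 kb, and 42.7%, 36.9% and 40.0% of the summits lay between the ends of a protein-coding gene. This was less than the 58.0%, 50.3% and 49.2% of peaks away from gene ends and the 52.4%, 47.0% and 43.8% of all peaks; these differences were not tested. RefSeq also lists starts within protein-coding genes, and 138, 115 and 15 of the peaks (18.2%, 9.91% and 16.7%) had a summit within 1000 bp of one, against 10.6%, 3.38% and 6.97% of peaks away from gene ends. For those peaks the class name holds for gene ends but not for every protein-coding start. No chromosome 8 starts were used, so the 42, 17 and 2 peaks of the class there count as without one. A further set of summits at lncRNA ends was left out because a protein-coding end was also within 1000 bp: 1517 of 2276 in clone 1 (66.7%), 1094 of 2254 in clone 2 (48.5%) and 212 of 302 in clone 3 (70.2%). The limits were sharp only by definition. In clone 1 the peak of MBNL1-AS1, 996 bp from the gene's end with a fold enrichment of 4.68, was the farthest inside, and that of LOC101928728, at 1002 bp with 2.53, the first outside. On the other limit, NRSN2-AS1 lay 1001 bp from a protein-coding end with 4.57, and a peak 992 bp from CNOT2 with 3.71 was left out.

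Peaks of the class were narrower than those at protein-coding ends and wider than those away from gene ends. The median widths in clones 1, 2 and 3 were 237, 98 and 178.5 bp, against 306, 121 and 185 bp at protein-coding ends and 206, 93 and 158 bp away from ends. The authors' median −log10 q was 4.44, 4.79 and 3.44, below the 5.17, 5.73 and 3.75 at protein-coding ends and above the 4.08, 4.33 and 3.29 away from ends. Median fold enrichment, the summit's pile-up over the local background within 1 library, was 3.55, 4.09 and 3.18 against 3.53, 3.74 and 2.98 at protein-coding ends and 3.55, 4.27 and 3.87 away from ends. The pile-up that each fold and p-value imply, in reads covering the summit, had medians of 23, 20 and 29.5 against 27, 28 and 34 at protein-coding ends and 22, 16 and 20 away from ends. The class thus lay between the other classes in pile-up and −log10 q, and its folds differed little from both in clone 1. The log2 ratio of median widths to protein-coding ends was -0.24, that of folds 0.08, and the mean difference in −log10 q -0.66. Against peaks away from ends the same measures were 0.15, -0.12 and 0.33. Each had the same sign in 3 of 3 clones (exact sign-flip p = 0.25), but the fold against protein-coding ends lost this with limits of 500 and 2500 bp (exact sign-flip p = 0.5).

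Merged over the clones, the peaks fell in 1587 regions, of which 1227 had a peak in 1 clone, 302 in 2 and 58 in 3. Peaks in 2 or more clones, with none in a control line, were found for 360 regions, or 22.7%, against a background of 20.9% of all 32817 regions. The share was therefore near the background. It was 38.6% of 9380 regions with a peak at a protein-coding end and 13.5% of 21908 regions with a peak away from gene ends. For all 3 clones the shares were 3.65% of the 1587 regions, 3.82% of all regions and 8.41% of those at protein-coding ends. Peak by peak, 43.9%, 31.6% and 91.1% of the peaks in clones 1, 2 and 3 overlapped a peak of another clone. The same share was 49.2%, 64.5% and 97.1% at protein-coding ends and 43.6%, 16.9% and 62.0% away from ends. The differences averaged -14.7 and 14.7 percentage points, each of 1 sign in 3 of 3 clones (exact sign-flip p = 0.25). The first turned to 1.08 points among peaks with a fold enrichment of 5 or more. The 360 regions fell to 69 without clone 1 and to 70 without clone 2, against 329 without clone 3.

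Starts with a summit were CpG-rich. Of the 1472 genes, 1066 were found in the RefSeq promoter table, and 400 of their windows over 1000 bp from protein-coding ends held a summit in at least 1 clone. Their median observed to expected CpG ratio was 0.716 and their median G and C content 63.0%, against 0.230 and 46.7% in 10067 lncRNA windows without one. The ratio was over 0.6 in 60.3% of the first and 12.2% of the second. Windows with a summit in at least 2 clones, 121 in number, had a median of 0.787, and 6428 protein-coding windows with a summit had 0.875. The share of lncRNA windows with a summit was higher in each successive group by CpG ratio in clones 1 and 2, from 0.271% and 0.744% of the 4434 windows at up to 0.2 to 15.4% and 13.9% of the 741 windows over 0.8. In clone 3 it was 0.0226% in the lowest group and 1.89% in the highest. Windows share libraries and base composition, and these shares are descriptions.

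**Figure D3:**
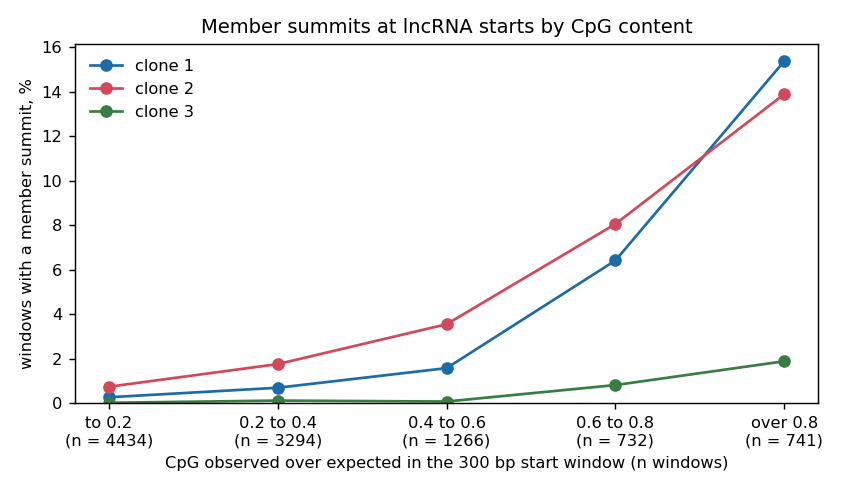
Percent of lncRNA promoter windows that hold a summit (y axis) by observed to expected CpG ratio of the window (x axis), per ΔNSPs clone. The lowest group has 0.271%, 0.744% and 0.0226% and the highest 15.4%, 13.9% and 1.89% in clones 1, 2 and 3.

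Motif letters in the 300-base windows were counted in lncRNA windows with a summit in any clone, in the 121 with a summit in at least 2 clones, in those without one, and in all 34789 windows of the table. GGGCGG or its reverse complement stood in 55.0%, 61.2%, 15.2% and 44.9% of these sets. The ETS letters CCGGAAGT stood in 5.00%, 7.44%, 0.854% and 4.12%, the NRF1 letters GCATGCGC in 6.25%, 5.79%, 0.954% and 3.02%, and the cyclic AMP response element TGACGTCA in 4.75%, 6.61%, 0.626% and 1.84%. Each of these 4 motifs holds a CpG, and each stood more often in both sets with a summit than in the set without. CCAAT, which holds none, stood in 34.0%, 45.5%, 35.6% and 34.6%: its share was higher than without a summit for windows found in at least 2 clones, and not for those found in any clone. The AP-1 letters TGANTCA stood in 14.3%, 15.7%, 11.7% and 7.69%, against 3.84% of protein-coding windows with a summit. GAGGAAGT, bound by the myeloid factor PU.1, stood in 5.50%, 2.48%, 2.38% and 2.60%. The first of these shares came mostly from clone 2, with 18 of 298 windows, against 7 of 216 in clone 1 and 0 of 26 in clone 3, and with a summit in at least 2 clones the share was near that without one. The E-box CACGTG stood in 11.5%, 14.9%, 4.47% and 7.24%, and the YY1 motif in 0.5%, 0, 0.159% and 1.21%. Both strands were searched, matches of different motifs may overlap, and how far base composition accounts for these shares was not tested. The units are starts and not genes: the 400 windows belong to 387 genes and the 121 to 115. Windows of nearby starts overlap and can hold the same match. Of the 121 windows, 7 hold the NRF1 letters, several of them overlapping windows of LINC02896 with the same match. The windows of LOC101930071 and LIPE-AS1 likewise share the same TGACGTCA.

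Grouped by their symbols, genes that host small RNAs held the highest share with such peaks. Of 116 genes with SNHG or MIR host symbols, 14.7%, 16.4% and 1.72% had a peak in clones 1, 2 and 3, and 10 (8.62%) in at least 2 clones, beside the 2.21% of all lncRNA genes. Antisense genes (-AS) had a peak in at least 2 clones for 70 of 2045, or 3.42%. Intergenic genes (LINC) had 3.43% and divergent transcripts (-DT), which start back to back with a protein-coding gene, 2.54%. The sequence at a gene's ends that is clear of protein-coding ends had a median length of 2145 bp for -DT genes. It was 3909 bp for -AS genes and 4002 bp for LINC genes and for all lncRNA genes. The shares were not adjusted for this length. The 12316 genes with LOC symbols, which have no assigned name, had 1.63%, the lowest of the classes with over 100 genes. No intronic (-IT) gene of 86 and no overlapping (-OT) gene of 21 had a peak in at least 2 clones.

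The 12 genes ranked highest among those with peaks in all 3 clones included 7 with LOC symbols (58.3%). Of the 62 genes they were drawn from, 28 had such symbols (45.2%). The share was 57.3% of the 1472 genes with a peak and 67.8% of all lncRNA genes. Several of the 12 lay beside protein-coding starts. By the summed rank of −log10 q, LOC101928234 (chr3:38156049-38165476) came first, with fold enrichments of 3.36, 3.62 and 3.08 in clones 1, 2 and 3, but its summit lay within OXSR1, in clone 1 at 360 bp from a listed start of that gene. ZNF436-AS1 followed, with 4.19, 4.05 and 3.59 and a start of ZNF436 95 bp from the clone 1 summit. SLC25A28-DT, with 3.60, 3.67 and 2.47, and CTDP1-DT, with 3.35, 5.14 and 2.10, likewise had a start of the protein-coding gene they are named after within 1000 bp. Such peaks cannot be assigned to the lncRNA rather than to the coding gene from position alone. The calls also depend on the window. ZNF436-AS1 kept a peak of the class in 0 clones with a limit of 500 bp and in 0 with 2500 bp. LOC101928234 and LOC124900931 kept it in 0 with 2500 bp, where a protein-coding end falls within the limit. These genes are examples and not a full list. The summits of LOC101927949 lay 902, 817 and 887 bp from the gene end, beyond a limit of 500 bp. The clone 1 summit of LOC124903881 lay 2214 bp from an end of RSRP1, within 2500 bp. LOC105372508 on chromosome 20 had no such start near it: its summits lay 321, 341 and 359 bp inside the 5′ end and had folds of 4.80, 9.30 and 3.50. LOC105372509 lies within that gene's span and had 2.38, 4.90 and 1.71 over implied pile-ups of 109, 176 and 87 reads, the deepest of these 12 genes in each clone. LOC124900931 had 3.62, 5.53 and 2.85, and LOC124903558, on chromosome 15, had 3.58, 6.52 and 3.03. LINC03014 and LINC03015 face away from each other on chromosome 7 and share 1 peak, with 3.38, 4.62 and 2.18. At LOC101927949, 2.93, 3.88 and 2.56, and LOC124903881, 4.34, 4.21 and 2.42, the summits lay near the 3′ end, inside the gene. Each of these 12 genes had overlapping peaks in all 3 clones.

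**Figure D4:**
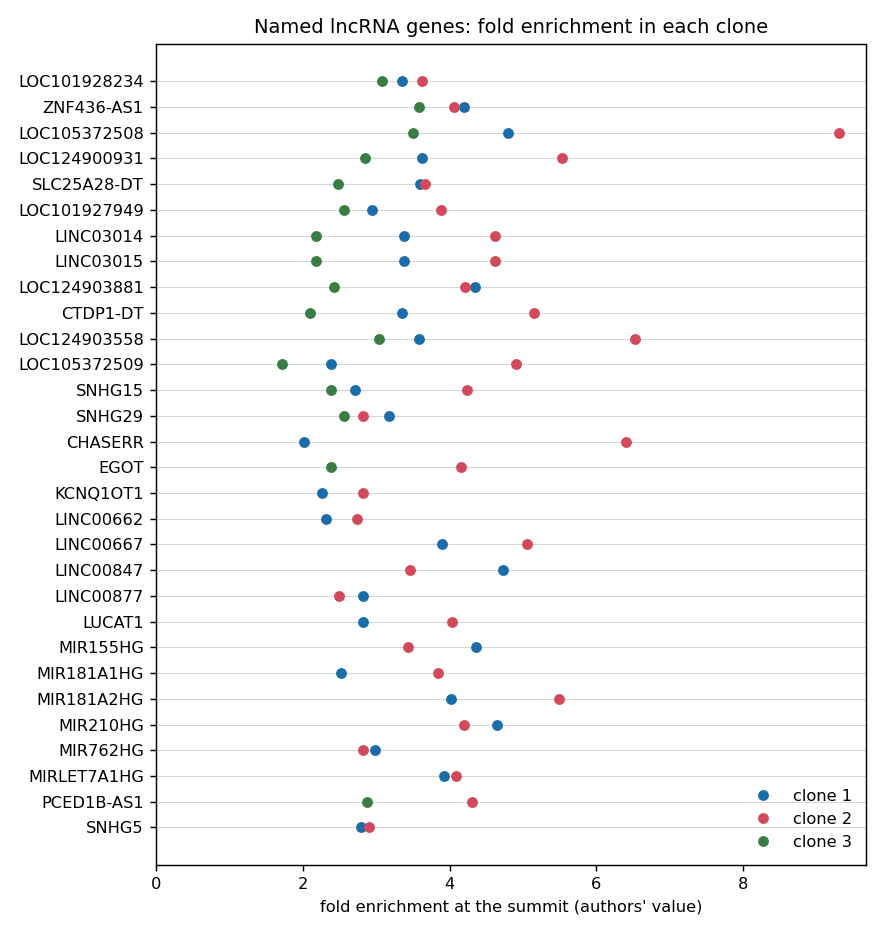
Fold enrichment (x axis) of the highest-ranked peak at each named lncRNA gene (y axis) in each ΔNSPs clone, with 1 point per clone; folds are relative to each library's own background. Genes found in all 3 clones are at the top and those found in 2 clones below.

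Hosts of snoRNAs, whose spliced introns release the RNAs that guide ribosomal RNA modification, had a peak in 10 of 33 listed genes in at least 1 clone (30.3%, against 8.10% of all lncRNA genes) and in 3 of 33 in at least 2 (9.09%, against 2.21%). SNHG15 (chr7:44983023-44986696) had folds of 2.71, 4.23 and 2.39, with summits 25, 24 and 28 bp from the gene end. Its implied pile-ups were 68, 55 and 55 reads over local backgrounds of 24.4, 12.2 and 22.5 reads, so the higher fold in clone 2 stood on a lower background and not on more reads. SNHG29 (chr17:16438987-16470648) had 3.17, 2.81 and 2.55, with summits 189, 235 and 295 bp before the start. An end of TRPV2 lay 1795 bp from its clone 1 summit, which is within the alternative limit of 2500 bp. SNHG5 (chr6:85677007-85678733) had 2.79 and 2.89 in clones 1 and 2 and no peak in clone 3. SNHG17 had its only peak in clone 2, with 8.40, SNHG3 in clone 1, with 4.98, and DANCR in clone 1, with 2.07. The SNHG3 summit lay 395 bp inside the 3′ end and within the protein-coding gene RCC1, so it is not at the start of SNHG3. The SNHG17 summit lay 4 bp from its 5′ end, within the protein-coding gene LOC124904958. Absence from the class did not mean absence of a peak. When summits that are also near protein-coding ends are counted, 22 of the 33 hosts had a summit at an end in at least 1 clone and 10 in at least 2 (30.3%, against 6.49% of all lncRNA genes), among them GAS5, ZFAS1 and SNHG1.

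Hosts of microRNAs had a peak in 12 of 49 genes (24.5%, against 8.10% of all lncRNA genes), and in 6 in at least 2 clones (12.2%, against 2.21%). In clone 3, where 0.539% of all lncRNA genes had a peak, 0 of the 49 had one. At MIR181A2HG, the host of miR-181a-2, the fold was 4.01 in clone 1 and 5.49 in clone 2, and MIR181A1HG had 2.52 and 3.84 with summits 69 and 70 bp before the start. MIR210HG had 4.64 and 4.19. MIRLET7A1HG, which carries let-7 family microRNAs, had 3.92 and 4.09, and MIR762HG 2.98 and 2.81. At MIR155HG, the host of the inflammation-induced miR-155, the peaks of clones 1 and 2 did not overlap: the clone 1 summit lay 60 bp inside the start with a fold of 4.35, and the clone 2 summit 390 bp before it with 3.43. Peaks in 1 clone included MIR17HG, the host of the growth-linked miR-17 cluster, with 4.60 in clone 1, and MIR142HG, the host of the blood-cell microRNA miR-142, with 4.73 in clone 1.

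Of 45 lncRNAs described in myeloid or immune cells, 14 had a peak in at least 1 clone (31.1%, against 8.10% of all lncRNA genes) and 6 in at least 2 (13.3%, against 2.21%). At LUCAT1 (chr5:91302986-91314402) the fold was 2.82 in clone 1 and 4.03 in clone 2. LINC00877 had 2.81 and 2.48. PCED1B-AS1 and EGOT, a transcript within ITPR1 that was described in eosinophil development, had no peak in clone 1: EGOT had 4.16 and 2.38 in clones 2 and 3, and PCED1B-AS1 4.31 and 2.87, at its 3′ end. MIR155HG and MIR181A1HG belong to this list as well. ITGB2-AS1, antisense to the leukocyte integrin gene ITGB2, had a peak in clone 2 with 5.56. Other genes of this list had no summit at an end in any clone, among them MIR223HG, HOTAIRM1 and MIR4435-2HG. When summits also near protein-coding ends are counted, 22 of the 45 had one (48.9%, against 16.5% of all lncRNA genes). Of 38 lncRNAs of neural and other tissues, 0 had a peak of the class in any clone, beside the same 8.10% of all lncRNA genes. With summits also near protein-coding ends counted, 4 of the 38 had one (10.5%, against 16.5% of all lncRNA genes). Genes with widely expressed transcripts had a peak in 14 of 44 (31.8%), and in 5 in at least 2 clones (11.4%). Among these, CHASERR, which lies beside CHD2 and represses it, had 2.01 and 6.40 (pile-ups of 49 and 90 reads over backgrounds of 23.8 and 13.2), LINC00667 had 3.90 and 5.05, LINC00662 2.31 and 2.73, and LINC00847, where the peaks did not overlap, 4.73 and 3.46. The LINC00667 peaks are shared with LINC00526 on the other strand. KCNQ1OT1, the imprinted antisense transcript within KCNQ1, had 2.26 and 2.82. The abundant nuclear transcripts MALAT1 and NEAT1 had a peak in clone 1 alone, with 2.86 and 4.70, and NORAD, a binder of Pumilio proteins, in clone 2 alone, with 6.32.

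The remaining lists are short, and 1 or 2 genes of each had a peak in any clone. These were KCNQ1OT1 and MEG9 of 22 imprinted lncRNAs (9.09%), NORAD and NEAT1 of 13 genes tied to p53 or DNA damage (15.4%), and HOXC-AS3, in clone 2 with a fold of 4.12, of 18 in the HOX clusters (5.56%), beside 8.10% of all lncRNA genes. With summits also near protein-coding ends counted, 4 of the 18 HOX cluster genes had one (22.2%, against 16.5% of all lncRNA genes). The same count gave 2 of the 22 imprinted genes (9.09%) and 4 of the 13 p53 or DNA damage genes (30.8%). Over all lists, 48 of 240 genes had a peak in at least 1 clone (20%, against 8.10% of all lncRNA genes) and 18 in at least 2 (7.50%, against 2.21%). The lists were chosen with results of these data known, so these shares describe the lists.

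**Figure D5:**
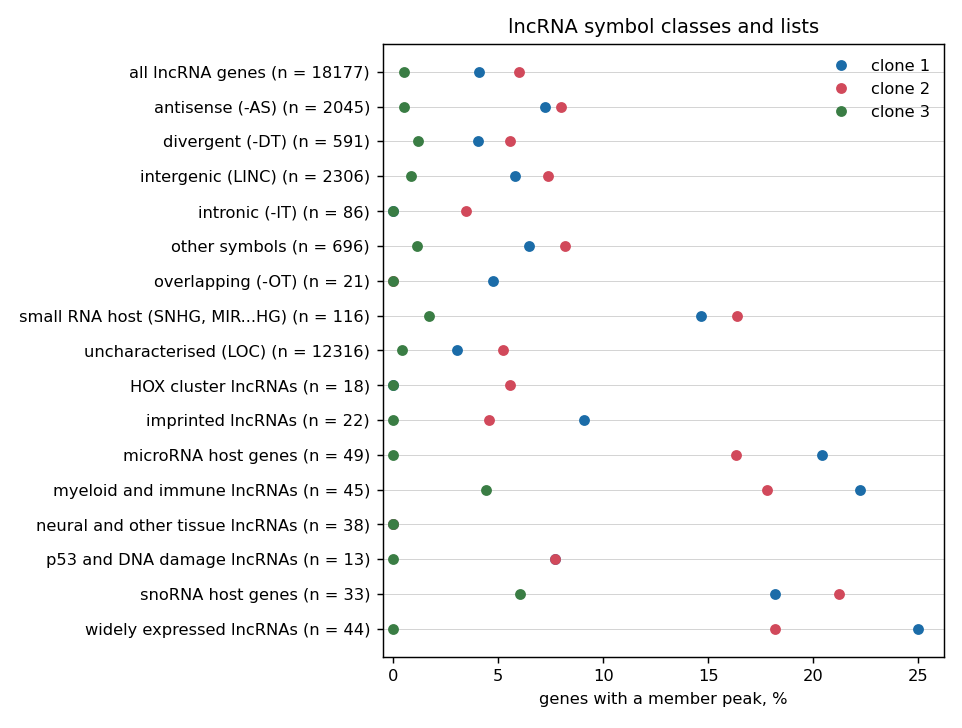
Percent of lncRNA genes with a peak of the class (x axis) by symbol class and by list (y axis), with 1 point per ΔNSPs clone; points at the same value cover each other. Small RNA hosts reach 14.7% and 16.4% in clones 1 and 2, against 4.10% and 6.01% of all lncRNA genes, and all 3 clones are at 0 for the neural and other tissue list.

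The balance of clones 1 and 2 differed by chromosome, as it did for all of their peaks. Clone 1 had 0.654 times as many peaks of the class as clone 2 genome-wide, and 0.571 times as many peaks in all. On chromosome 8 it had 42 against 17, a ratio of 2.47 beside 2.96 for all peaks, and on X 13 against 8. On chromosome 21 it had 5 against 35, a ratio of 0.143 beside 0.149 for all peaks, on chromosome 20 22 against 79, and on chromosome 15 30 against 87. The direction at lncRNA ends was that of all peaks of the chromosome in each of these. Several genes named above lie there, among them SNHG17 and NORAD on chromosome 20 and ITGB2-AS1 on chromosome 21, each with a peak in clone 2 alone. The part of chromosome-wide differences between the clones in these calls was not tested.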

How the data were processed

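ATAC-seq peak lists of 6 U937 libraries were used: 3 control lines and 3 ΔNSPs clones. Per the submitters' processing notes the authors used FastQC, Bowtie2, Picard and MACS2 on GRCh38; the sources used here give no version, role or setting. Peak names carry the library, so the authors called peaks per library. The deposited fold enrichment is a linear ratio of summit to local background. The deposited −log10 p and −log10 q values are per summit, and the deposited score equals 10 times −log10 q with its decimals dropped. They were used only within a list. The files give no read totals, so depth is unknown, and the number of clones limits the precision.

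Lines of 1 interval were reduced to the summit of highest −log10 q. In clone 2, 127 summit offsets below 0 were set to 0. Gene ends, types and symbols came from the RefSeq table and promoter windows from the RefSeq promoter table (GRCh38.p14). That table gave the strand, and chromosome 8 windows were not used here. Regions were peaks merged where they shared at least 1 bp. Pile-ups were solved from fold and p, assuming a pseudocount of 1 read and a Poisson tail; all came out whole within 0.05 reads. Library counts were compared with the exact two-sided permutation test (20 assignments), and classes of peak within clones with the exact sign-flip test (8 sign sets).

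The members and lists were chosen with earlier results of these data known. Of 252 listed symbols, 245 matched a RefSeq gene and 240 distinct lncRNA genes were counted. The genes named were up to 12 with a peak in all 3 clones by smallest summed rank of −log10 q, list genes with a peak in at least 2 clones, and the peaks nearest the 1000 bp limits. Other list genes and the chromosomes named were chosen after their values were seen. The scripts were tested on simulated data. Alternatives were windows of 500 and 2500 bp, stricter −log10 q and fold minimums, any base in place of the summit, named lncRNAs only, equal list lengths, and each library left out. Python 3.11.15, numpy 2.4.6, scipy 1.17.1, pandas 2.3.3 and matplotlib 3.10.9 were used.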

Additional observations from a re-analysis of the deposited data

How the results depend on the processing

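Of 166 alternative values of the main results, 153 were counted as the same as the reported value. For tested results this meant the same sign, whatever the size. For the counts of regions and genes it meant a value within 1.5 times of the reported one. The sharing of peaks between clones, lower by 14.7 percentage points than at protein-coding ends, turned to 1.08 points among peaks with a fold of 5 or more; the cause was not tested. The 360 regions and 401 genes with a peak in at least 2 clones became 128 and 138 at a −log10 q of 5 or more, 11 and 12 at a fold of 5 or more, and 51 and 53 with 2000 peaks per clone, where fewer peaks entered. Without LOC symbols they were 192 and 200, from fewer genes. Leaving out 1 library gave 69 to 360 regions and 72 to 371 genes, with the low values without clone 1 (69 and 82) and clone 2 (70 and 72). Among 30 named genes, 194 of 360 values of the number of clones with a peak stayed the same. Part of these values were fixed in advance. Leaving out a clone removes its peaks, and leaving out LOC symbols removes the LOC genes. A stricter overlap between peaks cannot change this number. The 194 are therefore no measure of how stable the genes are.

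With the replicate number as a block, the differences in log10 counts were 2.63 for peaks and 2.64 for genes with p = 0.25 in the exact sign-flip test; the labels number the lines but tie no control line to a clone. The density comparison was not run on any base of an interval, and control lines were left out only where the result uses them. No test here could pass 0.05, so its p says nothing about stability. Depth is not given, and a gene without a peak in clone 3, the shortest of the clone lists, may lie below what that list could call.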

Other observations

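Some peaks of the class also lay at the ends of other gene types. Ends of transcribed pseudogenes, which are disabled gene copies that are still transcribed, were within 1000 bp of 25 of the 759 peaks in clone 1 (3.29%), 22 of 1160 in clone 2 (1.90%) and 5 of 90 in clone 3 (5.56%). Among peaks away from gene ends the shares were 1.18%, 0.587% and 0.279%, and at protein-coding ends 0.580%, 0.591% and 0.196%. Ends of transfer RNA genes, which RNA polymerase III transcribes, were near 1.32%, 0.776% and 0% of the peaks in clones 1, 2 and 3, against 1.25%, 0.188% and 0.558% away from gene ends, with no common direction. Ends of small nuclear RNA genes were near 4, 5 and 2 peaks (0.527%, 0.431% and 2.22%), against 0.224%, 0.111% and 0.836% away from gene ends.

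The 3 peaks of highest fold in each list lay at genes with LOC symbols, which 57.3% of the genes with a peak have. In clone 1 these were LOC124904914 on chromosome 20 with 7.64, which is also within 1000 bp of a listed protein-coding start, LOC105372952 with 7.34 and LOC107985584 with 7.31. In clone 2 they were LOC124904637 on chromosome 19 with 14.7, LOC105369183 with 12.2 and LOC124904404 with 11.4, and their implied local background was 1.38, 0.878 and 0.922 reads. In clone 3 they were LOC101929617 with 5.77, LOC105376478 with 5.69 and LOC124904606 with 5.38. None of these 9 genes is among the 12 ranked highest over all 3 clones.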
